A study of Mus musculus with 12 samples.

Results

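Vcam1 and Icam1 encode 2 cell-surface adhesion molecules, and they were taken from the deposited table by gene symbol. Each symbol matched 1 entry, giving 2 of 25124 entries, and both passed the minimum level that 11765 genes passed for testing. The cells were MC3T3-E1, an established line of mouse osteoblast precursors derived from skull bone, and polyadenylated RNA was sequenced in 12 libraries. All 4 groups began with 30 min in medium with 2.5% serum. The 3 TNFa+BMP4 libraries came from cells that met TNFa (10 ng/mL) first, for 30 min, and BMP4 (10 ng/mL) afterwards, for 3 h. The 3 TNFa libraries came from cells given TNFa without BMP4, the 3 BMP4 libraries from cells given BMP4 without TNFa, and the 3 untreated libraries from cells given neither factor. The sample characteristics list 3 h for each factor, so the total time in TNFa is not settled by the labels. No altered allele is named for any group, p65 stands without explanation in the titles of libraries with TNFa alone, and the cell line stands alone as a model, with no leukocytes or endothelium labelled in the cultures. In the labels, replicate 1 of every group belongs to batch 1, and replicates 2 and 3 belong to batch 2. Separate cultures are not stated for the replicates. The p-values therefore reflect the spread between libraries alone, and it may be technical.

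Vcam1 and Icam1 are immunoglobulin-family proteins that stud the surface of endothelial and stromal cells and give passing leukocytes a place to hold on to. Vcam1 is the ligand of the integrin pair Itga4 with Itgb1 or Itgb7, and Icam1 is the ligand of integrins that contain Itgb2, such as Itgal with Itgb2. Both genes are textbook targets of TNFa, which acts through its receptors and the IkB kinase complex to bring NF-kB dimers into the nucleus. In bone and marrow, Vcam1 and Icam1 on stromal and osteoblastic cells are known for contact with blood-forming cells, lymphocytes and osteoclast precursors. BMP4 acts through a separate receptor family and the Smad proteins, and the design asked how its signal and that of TNFa combine.

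Vcam1 was entered as transcript NM_011693 on the minus strand of mm10 chromosome 3, from 116110020 to 116129688, with 9 exons and 3387 exonic bases. Icam1 was entered as transcript NM_010493 on the plus strand of chromosome 9, from 21015940 to 21028814, with 7 exons and 2568 exonic bases. GENCODE places an antisense gene over the exons of each. Gm47079 shares 511 exonic bases with Icam1, which is 19.9% of its length, and Gm43109 shares 61 exonic bases with Vcam1, or 1.80%. Whether reads were counted by strand is not given in the sources used here, so reads of either antisense gene could not be told apart from those of Icam1 or Vcam1.

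The promoter of Icam1 is shown because NF-kB is the best-known route from TNFa to this gene and because its rise with TNFa is the main result. It comes from the RefSeq promoter table of build GRCm38.p6, which held 1 of the 2 genes, and covers 250 bases before the annotated start and 50 bases from it, at chr9:21015690-21015989 on the plus strand. Capitals mark, in order, a match to the NF-kB type motif GGAAATTCC, a match to the STAT type motif TTCCNGGAA and the letters TATAAA.
Icam1 promoter: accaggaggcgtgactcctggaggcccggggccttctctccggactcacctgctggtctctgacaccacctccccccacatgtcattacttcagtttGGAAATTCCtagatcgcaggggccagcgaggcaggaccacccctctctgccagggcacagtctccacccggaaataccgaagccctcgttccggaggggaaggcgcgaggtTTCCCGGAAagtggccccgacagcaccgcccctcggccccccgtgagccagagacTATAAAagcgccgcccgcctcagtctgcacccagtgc
Counted from the annotated start as base 1, the matches begin at -153, at -42 and at 14, and none of them overlaps another. Both strands were searched for these motifs and for the wider NF-kB consensus, GGG and TTCC with any 3 bases between them, which was not found in this window. Of all 32851 promoters in the table, 0.317% held GGAAATTCC, 5.56% held the wider consensus, 1.15% held TTCCNGGAA and 13.6% held TATAAA. A match of letters is a description of the window and does not show that a protein binds there.

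The 5 genes whose levels followed Vcam1 most closely over the libraries, described further on, each had a match to the wider NF-kB consensus in the 300-base promoter. The 30-base windows around those matches, in capitals, are shown beside that of Icam1 so that the spellings can be compared. All are on the plus strand, in the same build. They lie at chr9:21015776-21015805 for Icam1, chr17:45555584-45555613 for Nfkbie, chr3:142620660-142620689 for Gbp2, chr19:46305695-46305724 for Nfkb2, chr12:111166350-111166379 for Traf3 and chr16:91546974-91547003 for Ifngr2.
Icam1: tacttcagtttGGAAATTCCtagatcgcag
Nfkbie: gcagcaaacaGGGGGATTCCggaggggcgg
Gbp2: gcaaaaatctGGAACTTCCCgggttactac
Nfkb2: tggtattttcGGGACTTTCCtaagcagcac
Traf3: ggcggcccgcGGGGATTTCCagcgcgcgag
Ifngr2: ggaacaccggGGAAAGTCCCcacgggccgg
The promoter of Nfkb2 is that of the deposited start, and those of its other starts were not searched. It held a further match to the wider consensus, beginning at -236, that is not shown. Cx3cl1, the gene most like Icam1, held neither NF-kB type motif, and nor did Icam4 or Icam5. Cd74 and Ntn1, the next most like Icam1, had no entry in the promoter table. The matches in Gbp2 and Ifngr2 read in the direction of the reverse strand. Among the 9312 tested genes with a promoter in the table, 7.21% held the wider consensus and 0.440% held GGAAATTCC. Among the 850 of them called higher with TNFa, the shares were 10.8% and 1.53%, given without a test.

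The libraries held between 13737314 and 20579256 tags, and all but 1, replicate 2 of TNFa+BMP4, held at most 15511104. The osteoblast label was checked against 10 marker genes, of which 7 passed the minimum level. Col1a1, Col1a2 and Sparc, which encode bone matrix proteins, had mean log2 levels of 17.26, 17.49 and 16.33 over the 12 libraries, and Runx2, the transcription factor that starts the lineage, had 10.31. Alpl, Bglap and Ibsp, markers of later osteoblasts, had 0.35, -0.03 and -1.23 and were below the minimum. Of the leukocyte markers, Adgre1 and Cd3e were listed at 0 in every library, and Ptprc had a mean log2 level of -1.97. Lyz2 and Cd68, with mean log2 levels of 4.71 and 4.49, passed the minimum, and neither was called for TNFa against untreated (-0.07 ± 0.07 and 0.08 ± 0.07, SE). The 5 leukocyte markers not at 0 in every library summed to linear levels of 49.8 to 56.6 in TNFa+BMP4 libraries, 51.1 to 56.5 in TNFa libraries, 48.2 to 56.1 in BMP4 libraries and 50.9 to 55.7 in untreated libraries, and these ranges overlapped. Lyz2 and Cd68 lie at low levels, where the deposited scale shrinks differences, as described further on.

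Of the 8 endothelial markers, Kdr and Emcn were listed at 0 in every library, and Cdh5, Tie1, Erg and Tek were below the minimum. Flt1, a VEGF receptor that is also made outside endothelium, moved with the adhesion genes: its log2 level averaged 11.80 in TNFa libraries and 10.76 in untreated libraries, a difference of 1.03 ± 0.05 (SE, limma, adjusted p = 2.02e-12). With Flt1, the summed linear level of the 6 endothelial markers not at 0 in every library ran from 2793 to 5858 in TNFa libraries and from 1444 to 2615 in untreated libraries. Without Flt1 it ran from 36.7 to 43.4 in TNFa libraries and from 37.0 to 45.0 in untreated libraries, so that those ranges overlapped. In TNFa+BMP4 libraries it ran from 45.9 to 51.6, above both, and in BMP4 libraries from 41.6 to 48.5. Pecam1 averaged 5.21, 4.76, 5.02 and 4.83 in TNFa+BMP4, TNFa, BMP4 and untreated libraries. Against untreated libraries, limma called both Flt1 and Pecam1 higher in TNFa+BMP4 libraries, as it did 16.8% of tested genes. In bulk RNA, fewer cells of a type and less RNA per cell cannot be told apart, for Vcam1 and Icam1 as for these markers, and the part of endothelial cells in the rise of the adhesion genes was not tested. Of the osteoblast markers, Runx2 and Pth1r, the parathyroid hormone receptor, were lower in TNFa libraries than in untreated libraries, by -0.60 ± 0.07 and -0.65 ± 0.09 (SE, limma).

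Vcam1 was high in every group and higher still in every library that had TNFa. Its log2 levels in replicates 1, 2 and 3 were 12.33, 11.74 and 11.78 in TNFa+BMP4 libraries and 12.41, 11.85 and 11.83 in TNFa libraries. They were 10.05, 9.51 and 9.40 in BMP4 libraries and 10.16, 9.63 and 9.44 in untreated libraries. Every library with TNFa lay above every library without it, while the 2 groups with TNFa overlapped each other, as did the 2 without. Within each group replicate 1, the batch 1 library, was the highest. The group means were 11.95 ± 0.33, 12.03 ± 0.33, 9.66 ± 0.35 and 9.74 ± 0.37 (SD, n = 3 each) for TNFa+BMP4, TNFa, BMP4 and untreated libraries.

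Icam1 was low without TNFa and stood well above that level in all 6 libraries with it. Its log2 levels in replicates 1, 2 and 3 were 6.43, 6.88 and 6.70 in TNFa+BMP4 libraries and 6.46, 6.91 and 7.05 in TNFa libraries. They were 4.96, 4.96 and 4.96 in BMP4 libraries and 4.90, 4.93 and 4.84 in untreated libraries. Again no library with TNFa overlapped one without it, and the 2 groups with TNFa overlapped each other. The batch pattern was not that of Vcam1: among libraries with TNFa, replicate 1 of each group was the lowest. The group means were 6.67 ± 0.22, 6.81 ± 0.31, 4.96 ± 0.0030 and 4.89 ± 0.042 (SD, n = 3 each) for TNFa+BMP4, TNFa, BMP4 and untreated libraries.

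**Figure D1:**
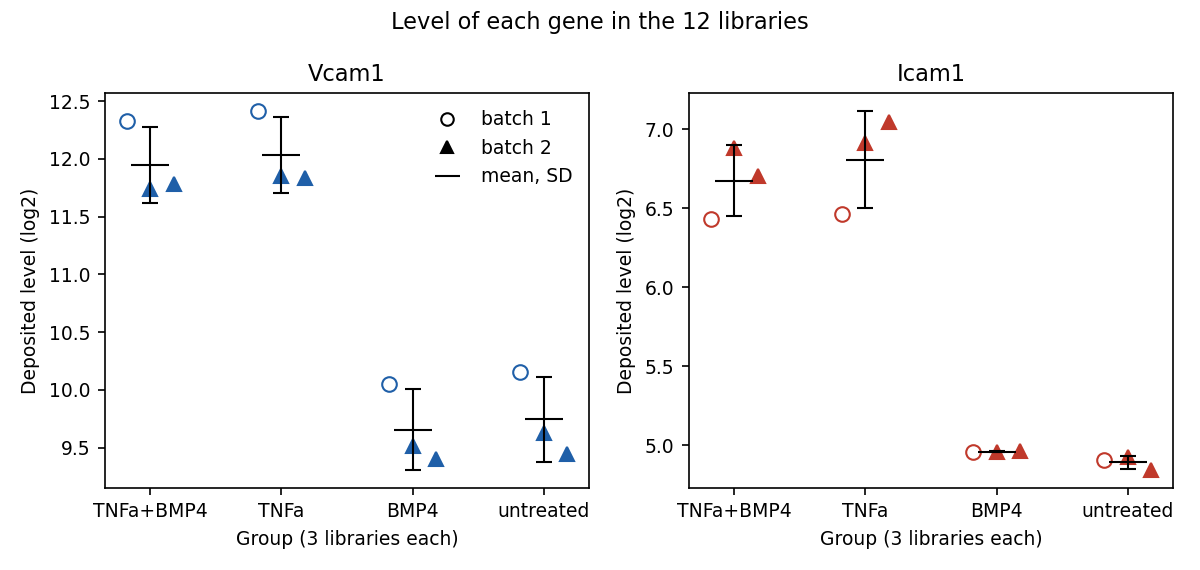
Deposited log2 levels of Vcam1 and Icam1 (vertical axis) in the 12 libraries, by group along the horizontal axis. Points are single libraries marked by batch, and the bars give the mean and SD of 3 libraries. All 6 libraries with TNFa lie above all 6 without it for both genes, and batch 1 libraries of Vcam1 lie at the top of each group.

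Per kilobase of exon, Vcam1 was the more abundant transcript in every group. Its mean log2 levels per kilobase were 10.19, 10.27, 7.90 and 7.98 in TNFa+BMP4, TNFa, BMP4 and untreated libraries, and those of Icam1 were 5.31, 5.45, 3.60 and 3.53. The gap between them, Vcam1 minus Icam1 on the log2 scale per kilobase, was 4.88 ± 0.55, 4.82 ± 0.63, 4.30 ± 0.35 and 4.45 ± 0.35 (SD, n = 3 each) in the same order of groups. This gap stands on the deposited scale, which shrinks differences at low levels. With the rises of the authors' deposited table, 7.51 for Icam1 and 2.48 for Vcam1, it would narrow with TNFa. The order of the levels was the same for both genes at its top, with TNFa followed by TNFa+BMP4, and these neighbours did not differ beyond their spread. At its foot untreated cells were above BMP4 cells for Vcam1 and below them for Icam1, and neither of these differences passed the test.

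TNFa alone raised both adhesion genes, the question that the pair of TNFa and untreated libraries answers. Vcam1 averaged 12.03 in TNFa libraries and 9.74 in untreated libraries, a log2 fold change of 2.29 ± 0.05 (SE, 95% interval 2.18 to 2.40, adjusted p = 1.19e-17), or 4.88-fold on the deposited scale. Icam1 averaged 6.81 in TNFa libraries and 4.89 in untreated libraries, a log2 fold change of 1.92 ± 0.10 (SE, 95% interval 1.70 to 2.13, adjusted p = 7.83e-12), or 3.77-fold. Both were called higher, against a background of 9.16% of tested genes called higher with TNFa, and in both the groups did not overlap, against 9.50% of tested genes. The p-values are from limma with Benjamini-Hochberg adjustment over all tested genes. Among the 11765 genes ordered by the size of the rise, Vcam1 stood 14th and Icam1 24th.

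Both genes rose with TNFa in each batch. TNFa minus untreated was 2.25 in batch 1 and 2.30 in batch 2 for Vcam1, and 1.56 in batch 1 and 2.09 in batch 2 for Icam1. A model of all 4 groups with a TNFa-by-batch term was chosen after seeing the data. Its term pools TNFa against untreated with TNFa+BMP4 against BMP4, where Icam1 differed by 1.47 in batch 1 and 1.83 in batch 2. It put the batch 1 effect minus the batch 2 effect at -0.04 ± 0.08 for Vcam1 (SE, adjusted p = 0.911) and at -0.44 ± 0.12 for Icam1 (SE, 95% interval -0.69 to -0.20, adjusted p = 0.0747). The term for Icam1 did not pass the threshold, which 1.13% of tested genes passed. Averaged over the 4 groups in the model without that term, batch 1 minus batch 2 was 0.59 ± 0.04 for Vcam1 (SE, adjusted p = 9.44e-11) and -0.21 ± 0.08 for Icam1 (SE, adjusted p = 0.0193), and 64.1% of tested genes were called for batch. For Icam1 the batches differed in libraries with TNFa: 6.46 and 6.98 in batch 1 and batch 2 of TNFa, 6.43 and 6.79 of TNFa+BMP4. Without TNFa they were 4.90 and 4.88 in untreated libraries and 4.96 and 4.96 in BMP4 libraries. At such low levels the deposited scale shrinks differences, so a difference between batches or libraries without TNFa could be hidden.

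BMP4 alone moved neither gene past the test. Vcam1 averaged 9.66 in BMP4 libraries and 9.74 in untreated libraries, a difference of -0.09 ± 0.05 (SE, 95% interval -0.20 to 0.02, adjusted p = 0.326). Icam1 averaged 4.96 in BMP4 libraries and 4.89 in untreated libraries, a difference of 0.07 ± 0.10 (SE, 95% interval -0.14 to 0.28, adjusted p = 0.738). BMP4 changed 12.2% of tested genes, neither of the adhesion pair among them. All 3 BMP4 libraries of Icam1 lay above all 3 untreated libraries without being called, and 7.73% of tested genes had BMP4 libraries that were all higher. The differences in batch 1 and batch 2 were -0.10 and -0.08 for Vcam1 and 0.06 and 0.08 for Icam1.

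With BMP4 added after TNFa, both adhesion genes were still high. Against untreated libraries, TNFa+BMP4 libraries were higher by 2.20 ± 0.05 for Vcam1 (SE, adjusted p = 2.49e-17) and by 1.78 ± 0.10 for Icam1 (SE, adjusted p = 2.46e-11), or 4.61-fold and 3.44-fold, where 16.8% of tested genes were called higher. Against BMP4 libraries, TNFa+BMP4 libraries were higher by 2.29 ± 0.05 for Vcam1 (SE, adjusted p = 1.14e-17) and by 1.71 ± 0.10 for Icam1 (SE, adjusted p = 7.14e-11), or 4.89-fold and 3.28-fold, where 8.78% were called higher. In both pairs of groups the libraries did not overlap for either gene, as held for 13.7% and 9.17% of tested genes in the higher direction. These comparisons share libraries with the TNFa comparison, so they are set side by side as values.

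The pair of TNFa+BMP4 and TNFa libraries shows what BMP4 did to the TNFa response. Vcam1 averaged 11.95 in TNFa+BMP4 libraries and 12.03 in TNFa libraries, a difference of -0.08 ± 0.05 (SE, 95% interval -0.19 to 0.03, adjusted p = 0.353), so the ratio of 0.944 had an interval of 0.874 to 1.02. Icam1 averaged 6.67 in TNFa+BMP4 libraries and 6.81 in TNFa libraries, a difference of -0.13 ± 0.10 (SE, 95% interval -0.35 to 0.08, adjusted p = 0.443), so the ratio of 0.911 had an interval of 0.786 to 1.06. Neither passed the test that 11.7% of genes passed, and a p above the threshold does not show that the levels were equal. For Vcam1 the interval leaves room for a loss of up to 0.19 on the log2 scale, beside a TNFa rise of 2.29. The difference in Icam1 was -0.03 in batch 1 and, in batch 2, -0.03 between the libraries numbered 2 and -0.34 between those numbered 3, so it was largest in 1 pair of libraries.

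The interaction asks directly whether TNFa raised a gene by a different amount when BMP4 followed. For Vcam1 the TNFa effect with BMP4 minus the effect without it was 0.0043 ± 0.075 (SE, 95% interval -0.15 to 0.16, adjusted p = 0.9996). For Icam1 it was -0.20 ± 0.14 (SE, 95% interval -0.50 to 0.10, adjusted p = 0.993). Both values stand on the deposited scale, which shrinks differences at low levels such as those of Icam1. The interval for Icam1 therefore does not bound the interaction on the authors' scale. In the authors' deposited table the TNFa effect on Icam1 was 7.51 without BMP4 and 5.79 with it, and the gap between these was not tested. Across all tested genes limma called 2 for the interaction, which is 0.0170%, while 560 had an unadjusted p under 0.05.

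**Figure D2:**
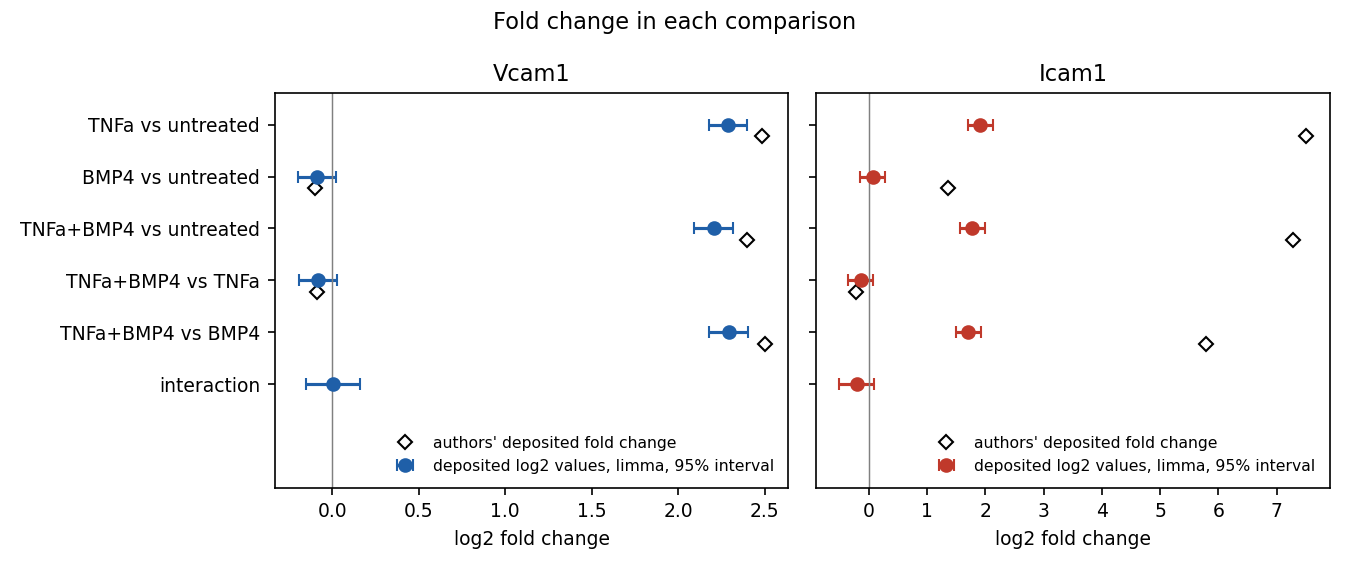
Log2 fold changes of Vcam1 and Icam1 (horizontal axis) in the 6 comparisons, from the deposited levels with 95% intervals from limma, and as diamonds from the authors' deposited table for the 5 pairs of groups. The 3 comparisons that add TNFa lie between 1.71 and 2.29 on the deposited levels, and the intervals of the other 3 cross 0.

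The 2 genes changed places when the authors' fold changes were read in place of differences between the deposited levels. In the authors' deposited table, TNFa against untreated was 2.48 on the log2 scale for Vcam1, with the adjusted p listed as 0, and 7.51 for Icam1, with an adjusted p of 1.61e-16. As linear folds from the authors' deposited table these are 5.59 and 183. The size for Icam1 is uncertain, because it is set against a low level. For TNFa+BMP4 the authors' log2 value was 7.29 over untreated and 5.79 over BMP4, while the deposited Icam1 means of untreated and BMP4 libraries were 4.89 and 4.96. Difference divided by the authors' value was 0.921 for Vcam1 and 0.255 for Icam1. Ordered by the authors' deposited table, Icam1 had the 3rd largest rise with TNFa of the 11765 genes and Vcam1 the 46th. So which of the 2 responded more depended on the scale, and that it rose did not.

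A difference between levels shrinks against the authors' fold change when the level is low, throughout the table. The slope of deposited differences on the fold changes of the authors' deposited table, for TNFa against untreated, was 0.26 over 1405 genes with a mean log2 level from 4 to 6 and 0.55 over 2649 genes from 6 to 8. It was 0.79 over 4760 genes from 8 to 10 and 0.92 over 2951 genes above 10. Icam1, with a mean of 5.83, falls in the lowest of these ranges and Vcam1, with 10.84, in the highest, and the ratio of each was close to the slope of its range. Both genes were among those fitted, so this closeness is not independent of them. The mean of Icam1 mixes levels with and without TNFa, and its mean of 6.81 in TNFa libraries lies in the next range. Among genes of the lowest range whose rise in the authors' deposited table was at least 1, the median ratio was 0.287 over 72 genes, and above 10 it was 0.919 over 25 genes.

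The same held for the other comparisons with TNFa. In the authors' deposited table, TNFa+BMP4 against untreated was 2.40 for Vcam1 (adjusted p = 3.02e-221) and 7.29 for Icam1 (adjusted p = 2.38e-15), and TNFa+BMP4 against BMP4 was 2.50 for Vcam1 (adjusted p = 5.15e-295) and 5.79 for Icam1 (adjusted p = 7.97e-23). TNFa+BMP4 against TNFa was -0.09 for Vcam1 (adjusted p = 0.279) and -0.21 for Icam1 (adjusted p = 0.558) in the authors' deposited table. BMP4 against untreated was -0.10 for Vcam1 (adjusted p = 0.703) and 1.36 for Icam1 (adjusted p = 1, unadjusted p = 0.41) in the authors' deposited table. For Icam1 without TNFa the deposited levels thus differed by 0.07 where the authors' value was 1.36, and neither passed.

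**Figure D3:**
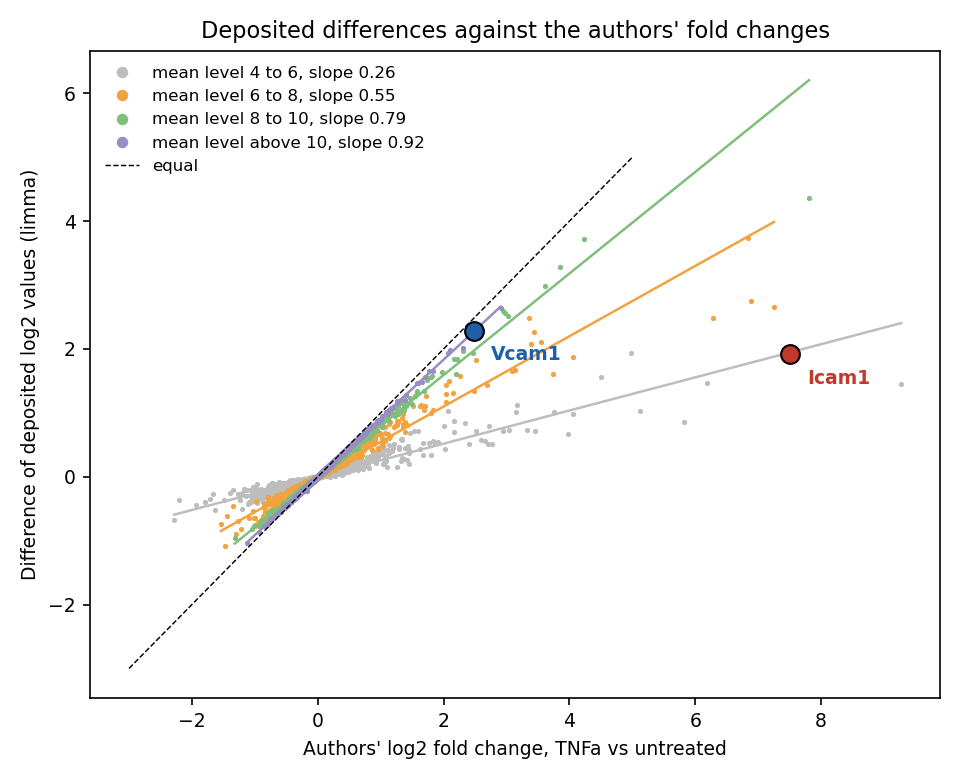
Difference between TNFa and untreated in deposited log2 levels (vertical axis) against the log2 fold change of the authors' deposited table (horizontal axis) for tested genes, coloured by mean level. The dashed line marks equal values. Vcam1 lies near it at 2.48 and 2.29, and Icam1 lies far below it at 7.51 and 1.92.

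The genes most like Vcam1 over the 12 libraries, by Pearson r after the mean of each batch was subtracted, were Nfkbie (r = 0.997), Gbp2 (0.995), Nfkb2 (0.995), Traf3 (0.994) and Ifngr2 (0.994). The genes most like Icam1 were Cx3cl1 (r = 0.996), Cd74 (0.995), Ntn1 (0.994), Nfkbie (0.992) and Vcam1 itself (0.990). Icam1 stood 17th for Vcam1. These correlations describe points that share groups and libraries, and all these genes shared the step between libraries with and without TNFa. Nfkbie encodes an inhibitor of NF-kB, Nfkb2 an NF-kB subunit, Traf3 an adaptor of TNF receptor family signalling, Gbp2 an interferon-inducible GTPase and Ifngr2 a chain of the interferon gamma receptor. Cx3cl1 encodes a chemokine that, anchored in the membrane, also holds leukocytes, Cd74 the invariant chain of MHC class II and Ntn1 the guidance cue netrin.

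Of these most alike genes, Nfkbie and Gbp2 were lower when BMP4 followed TNFa. Nfkbie averaged 11.37 in TNFa+BMP4 libraries and 11.70 in TNFa libraries and was called lower, by -0.33 ± 0.05 (SE, limma, adjusted p = 2.21e-04). Gbp2 averaged 10.46 in TNFa+BMP4 libraries and 10.92 in TNFa libraries and was called lower, by -0.46 ± 0.08 (SE, limma, adjusted p = 5.80e-04). Their rises with TNFa over untreated were 3.71 ± 0.05 and 3.28 ± 0.08. Vcam1, with -0.08 in that pair of groups, was not called, and the difference between Vcam1 and these genes was not tested.

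Among other adhesion ligands of endothelium and stroma, 5 of 16 tested members rose with TNFa. Of 29 listed genes, 16 were tested, 9 were below the minimum and 4 were at 0 in every library, among them the selectins Sele and Selp and the selectin ligand Glycam1. With TNFa, 5 of the 16 were called higher and 1 lower, where 9.16% of all tested genes were called higher and 6.32% lower, and their median difference was -0.04, beside -0.0090 over all tested genes. Unadjusted, 10 of the 16 had a p under 0.05, where 3124 of the 11765 tested genes did. Cd47, which marks cells as self and binds thrombospondin, rose by 1.28 ± 0.05, Icam5, an Icam1 relative best known from neurons, by 1.16 ± 0.13 and Cd44, the hyaluronan receptor, by 0.56 ± 0.06 (SE, limma). Pvr, a nectin-like molecule, rose by 0.39 and Cdh11, the cadherin of osteoblasts, by 0.36, while Cdh2, N-cadherin, fell by 0.40. With BMP4 added to TNFa, 2 of the 16 were higher and 3 lower than with TNFa alone, where 5.47% of tested genes were higher and 6.20% lower. Of these, the platelet-endothelial molecule Pecam1 was higher by 0.46 and Pvr was lower, at -0.31, in every fit that left out 1 library.

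Few receptors for the adhesion genes were measured in these cells. Of 10 integrin and sialophorin genes listed, 4 were tested. With TNFa limma called 0 of the 4, beside 9.16% of all tested genes called higher and 6.32% lower. An unadjusted p under 0.05 was found for 0 of them, and 4 genes are too few to set against these shares. Itgb1, the beta chain that pairs with Itga4, differed by -0.02 ± 0.05 (SE) between TNFa and untreated libraries. Itga4 had a mean log2 level of 1.06, and Itgb2, Itgal, Itgam, Itgax and Itgad were also below the minimum. The partners that anchor the tails of Vcam1 and Icam1 to actin were all tested, and 1 of 8 was called higher with TNFa, near the 9.16% of all tested genes. It was the crosslinker Actn1, at 0.18 ± 0.05 (SE, adjusted p = 0.0178), whose call was lost without untreated replicate 2, TNFa replicate 2 or TNFa replicate 3 (adjusted p up to 0.0987). The ERM proteins Ezr, Msn and Rdx differed by 0.10, 0.13 and 0.13 and were not called. Among the 8 partners, 5 had an unadjusted p under 0.05 with TNFa, beside 3124 of the 11765 tested genes.

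Proteases and regulators that release adhesion molecules from the surface moved in both directions with TNFa. Of 9 tested genes, 5 were called higher and 1 lower, beside 9.16% and 6.32% of all tested genes, and 3 were not called. As many as 7 of the 9 had an unadjusted p under 0.05, beside 3124 of the 11765 tested genes. Mmp9, a gelatinase, was higher by 1.02 ± 0.14, and by 5.13 in the authors' deposited table, and Rhbdf2, which escorts Adam17 to the surface, by 0.72 ± 0.10 (SE, limma). Timp3, an inhibitor of Adam17, was higher by 0.51 ± 0.10 (SE, limma), so not all the members that rose favour release. Adam8 rose by 0.37 and Rhbdf1 by 0.23, and Mmp2 fell by 0.19, a call lost without TNFa replicate 1, TNFa replicate 2 or untreated replicate 3 (adjusted p up to 0.223). Adam17, the enzyme known to cut Vcam1, differed by 0.04 ± 0.06 (SE) and was not called.

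Transcription factors known at the Vcam1 and Icam1 promoters were also measured. Of 18 tested, 12 were called higher with TNFa and 0 lower, beside 9.16% and 6.32% of all tested genes. An unadjusted p under 0.05 was found for 14 of the 18, and for 3124 of the 11765 tested genes. Their median difference was 0.56, beside -0.0090 over all tested genes. The NF-kB subunit genes were all among them: Relb by 2.56 ± 0.08, Nfkb2 by 1.93 ± 0.05, Nfkb1 by 0.83 ± 0.08, Rela by 0.78 ± 0.05 and Rel by 0.36 ± 0.07 (SE, limma). Irf1, known for its site in the Vcam1 promoter, rose by 1.27 ± 0.10 (SE, limma). Ets1 rose by 0.77, Cebpd by 0.75 and Irf2 by 0.55, and Jun and Sp1 differed by 0.14 and 0.04 and were not called. With BMP4 added to TNFa, 3 of the 18 were higher and 1 lower than with TNFa alone, beside 5.47% and 6.20% of all tested genes. Fos was the one of these called in every fit that left out 1 library, at 0.57 ± 0.09 (SE, adjusted p = 1.12e-04).

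Of the 13 proteins that bring the TNFa signal to NF-kB, 4 were called higher with TNFa and 0 lower, beside 9.16% and 6.32% of all tested genes. Without adjustment, p was under 0.05 for 5 of the 13, and for 3124 of the 11765 tested genes. Traf2, the adaptor at the receptor, rose by 0.75 ± 0.06 and the receptor gene Tnfrsf1b by 0.46 ± 0.09 (SE, limma). Rnf31 rose by 0.29 and Ikbkb by 0.20, calls that were lost without untreated replicate 1 (adjusted p = 0.0738) and without TNFa replicate 2 (adjusted p = 0.0800). Tnfrsf1a, the main receptor, differed by 0.09 and was not called. Over the 6 lists together, 87 genes were listed, 68 tested, 27 called higher and 2 lower, beside 9.16% and 6.32% of all tested genes.

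**Figure D4:**
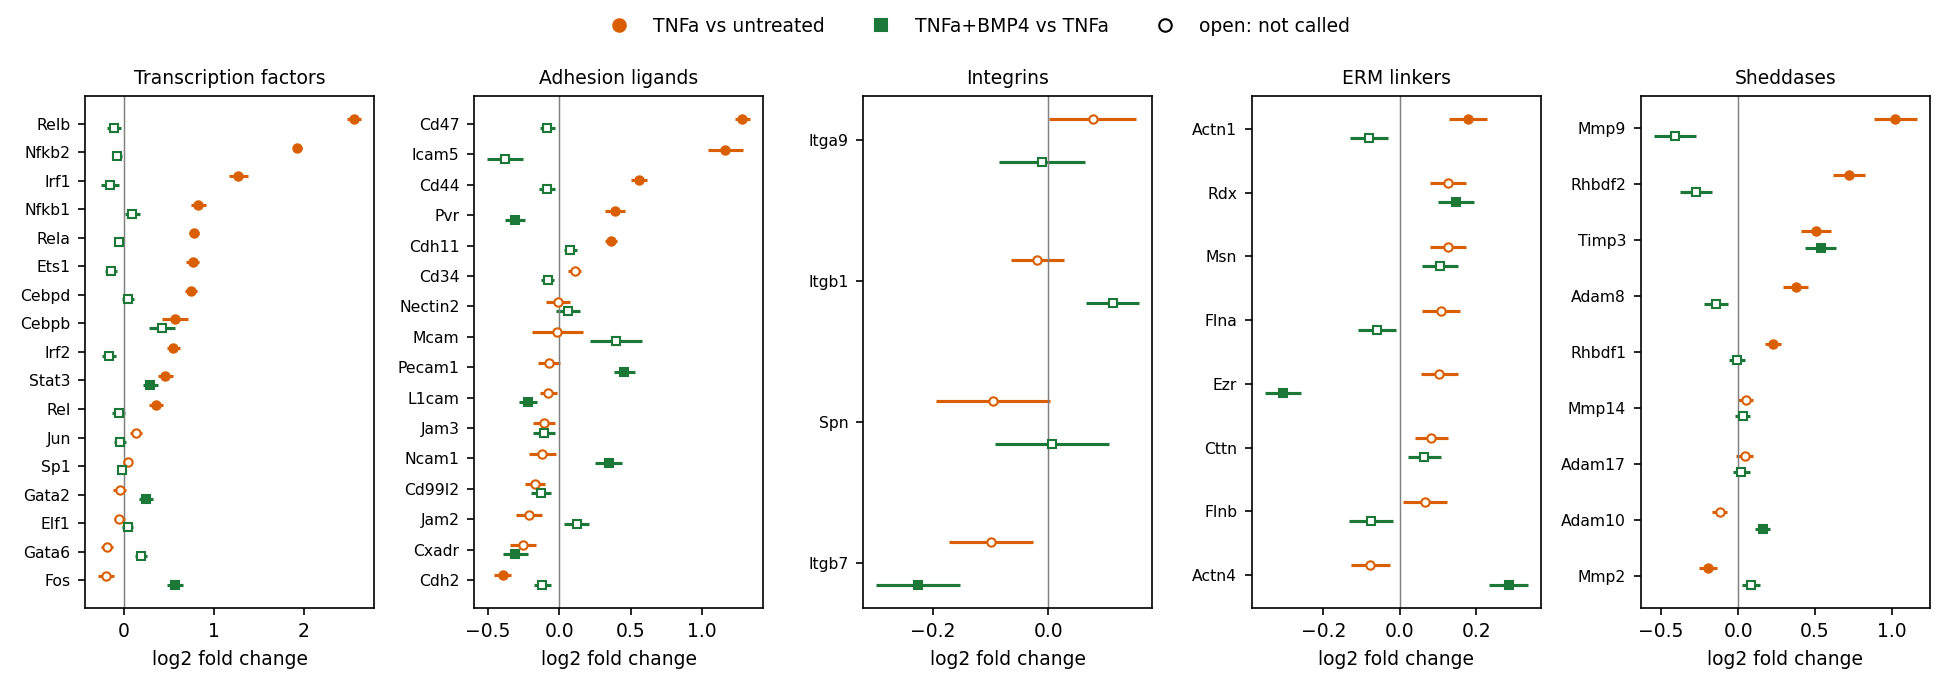
Log2 fold changes (horizontal axis) of the tested members reported here from 5 of the 6 lists, for TNFa against untreated (orange) and TNFa+BMP4 against TNFa (green). Bars are SE and filled points were called by limma. Most transcription factors are filled for TNFa, up to Relb at 2.56, and none of the 4 tested members of the integrin list is. Among all tested genes 9.16% were called higher with TNFa and 6.32% lower.

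Several genes that lie near Icam1 on chromosome 9 rose with TNFa as well. Within 200 kb of either end of Icam1, 20 other entries lay at least in part. Of these, 12 were tested, and with TNFa limma called 8 higher and 0 lower, beside 9.16% and 6.32% of all tested genes. Among the 8, Raver1 lies within Gm38431 on the same strand, and each rose by 0.29, so these entries may not be separate signals. Around Vcam1 there were 6, of which 4 were tested and 1, Slc30a7, a zinc transporter, was higher by 0.24 ± 0.05 (SE, limma). Downstream of Icam1 come its relatives, with 617 bases between Icam1 and Icam4 and 1441 between Icam4 and Icam5. Icam5 averaged 7.26 in TNFa libraries and 6.10 in untreated libraries. Icam4 was below the minimum, with 2.45 in TNFa libraries and 2.29 in untreated libraries. For TNFa against untreated the authors' deposited table gave it 3.05, with an unadjusted p of 0.0111 and an adjusted p of 1. For TNFa+BMP4 it gave Icam4 3.24 against untreated (adjusted p = 0.0408) and 2.74 against BMP4 (adjusted p = 0.105). Whether Icam4 responded to TNFa is thus not settled here. On the other side S1pr2, a sphingosine phosphate receptor, rose by 0.78 ± 0.07 and Mrpl4, a mitochondrial ribosome protein, by 0.69 ± 0.08, and Tyk2, a kinase of cytokine receptors, at 115 kb downstream, rose by 0.69 ± 0.06 (SE, limma). Ppan rose by 0.31, a call lost without untreated replicate 1 (adjusted p = 0.0546).

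**Figure D5:**
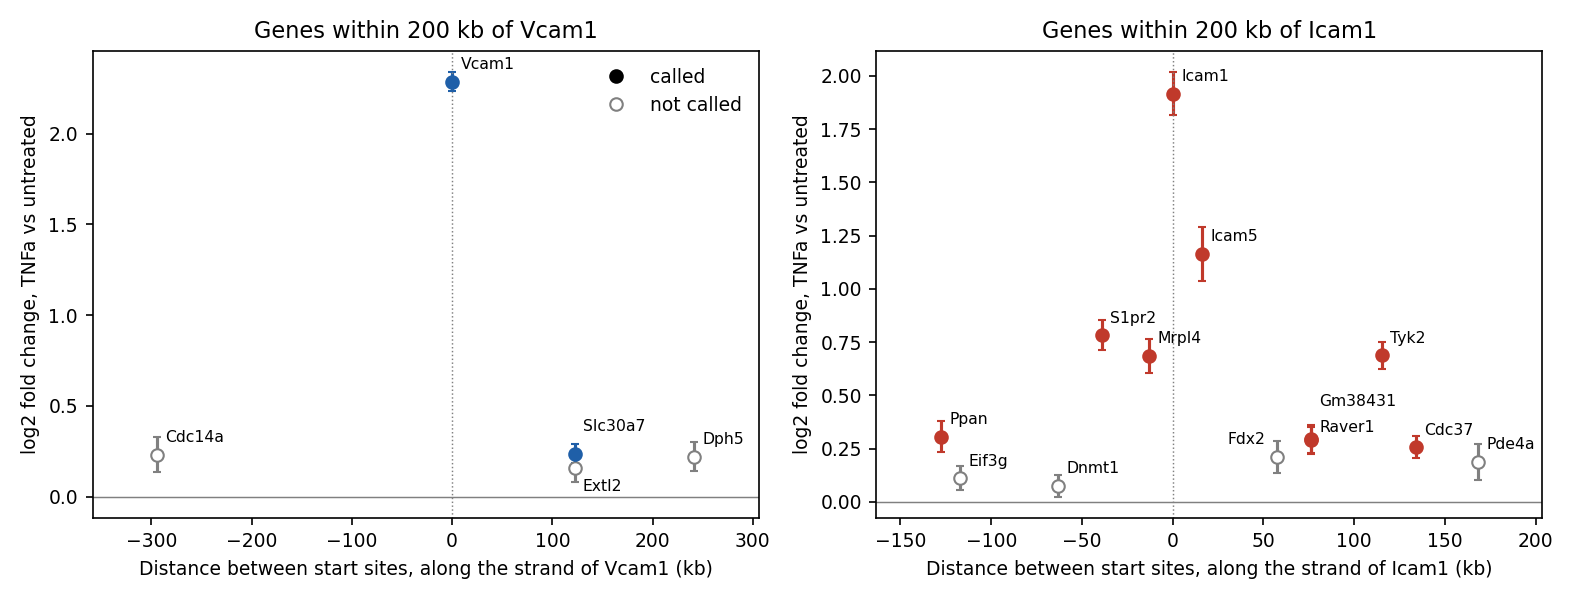
Log2 differences between TNFa and untreated libraries for tested genes (vertical axis) by the distance in kb between their start and that of Vcam1 or Icam1 (horizontal axis). Bars are SE and filled points are genes called by limma. Around Icam1 8 of 12 tested genes were called higher, and around Vcam1 1 of 4, beside 9.16% of all tested genes. Of those called around Icam1, Gm38431 and Raver1 overlap on the same strand.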

How the data were processed

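Polyadenylated RNA of 12 libraries, 3 per group, was sequenced. Trim Galore, HISAT2, HOMER and the mm10 build are listed without versions in the submitters' processing notes. Reads over exons were counted with HOMER, with 1 transcript kept per gene, and pairs of groups were tested with batch as a factor, per the file headers. The 12 library columns are deposited as log2 values, not adjusted for batch, and the transformation behind them is not named. Fold changes (log2), p-values and adjusted p-values by the authors stand in that deposited table too. Of 25124 entries, 7423 were at 0 in every library and stayed out.

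For 11765 genes with a mean of at least 4, limma 3.58.1 (R 4.3.3) was fitted to the deposited log2 values. The model held the 4 groups and batch as an additive term, with a trend of variance on level, leaving 7 residual degrees of freedom. Genes were called where the Benjamini-Hochberg adjusted p, over all tested genes of a comparison, was under 0.05. There were 6 comparisons, all two-sided, and the fit was tested on simulated data. The columns hold log2 values, not counts, so limma was used and no counting intervals are given. Pairing of equal replicate numbers beyond batch was checked: differences within batch 2 correlated between groups at 0.02 to 0.164, so no pairs were modelled. Named genes were the adhesion genes, members of 6 lists, the 5 most alike genes and genes lying at least in part within 200 kb of either. The members, lists and alternatives were chosen with earlier results of these data known. Depth (13737314 to 20579256 tags) and 3 libraries per group limit precision. Some list members are not reported here by name.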

Additional observations from a re-analysis of the deposited data

How the results depend on the processing

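Vcam1 and Icam1 kept their direction and their call in the 3 comparisons that add TNFa under every alternative run. Their rises with TNFa over untreated ran from 2.23 to 2.33 for Vcam1 and from 1.83 to 2.05 for Icam1 when 1 library was left out, and from 2.26 to 2.30 and from 1.91 to 2.09 otherwise (highest adjusted p = 2.87e-04, limma, no batch term). Icam1 has no value at a minimum level of 6, since its mean is 5.83. Neither gene was called for BMP4, for TNFa+BMP4 against TNFa or for the interaction under any alternative run. With 1 library left out, the difference of Icam1 between BMP4 and untreated ran from -0.025 (without BMP4 replicate 1) to 0.17, and the interaction of Vcam1 from -0.040 to 0.060; in batch 2 alone the interaction was -0.0042. For Icam1 the interaction ran, with 1 library left out, from -0.34 (without TNFa replicate 1) to -0.11 (without BMP4 replicate 1), and TNFa+BMP4 against TNFa from -0.27 (without TNFa replicate 1) to -0.045 (without TNFa replicate 3). Fitted with the replicate number as a replicate block, TNFa against untreated was 2.29 for Vcam1 and 1.92 for Icam1, and no call of either gene changed.

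Counts over all tested genes moved more. Without a batch term limma called 383 genes for TNFa, 114 for BMP4, 869 for TNFa+BMP4 against untreated, 105 against TNFa and 345 against BMP4, and 14 list members for TNFa in place of 29. TNFa+BMP4 against TNFa gave 1373 genes with the model as reported, 906 with no minimum level and 2096 from those groups alone, and 752 to 1726 with 1 library left out, being 752 without TNFa replicate 1, 800 without TNFa+BMP4 replicate 1 and 909 without TNFa replicate 2. BMP4 against untreated gave 756 (without untreated replicate 1) to 1642, and 951 without BMP4 replicate 1. The interaction gave 2 genes (560 at an unadjusted p under 0.05), 15 in batch 2 alone, 1 with the replicate block, 1 after quantile normalization, 0 without a batch term (95 unadjusted), 0 with no minimum level (807 unadjusted) and 0 to 7 with 1 library left out (450 to 697 unadjusted). Among genes the authors called, the slopes from the lowest level upward were 0.24, 0.53 and 0.79, with 0.92 above 10. The cause of these shifts was not tested.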
